A study of Homo sapiens with 12 samples.

Results

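POSTN and 9 further genes of matricellular and elastic fibre proteins (TNC, THBS1, THBS2, SPARC, FN1, TGFBI, FBN1, ELN and FBLN1) were described in proliferating (Pro) and senescent (Sen) IMR90. The 10 symbols were taken from a list out of 38716 in the deposited tables, and POSTN headed that list because it had one of the strongest losses of ribosome footprints in these same libraries. Ribo-seq sequences the mRNA fragments that ribosomes shield from RNase, here called ribosome-protected fragments (RPF), and the matching RNA-seq measured poly(A)-enriched transcripts of the same lysates. IMR90 is a primary line of normal human fetal lung fibroblasts. Pro cells were dividing cultures and Sen cells had been passaged in serum-containing MEM until replicative exhaustion, and the labels name no engineered allele or drug treatment. The deposited Pro RNA-seq tables carry a tag in their names that resembles a solvent name, and whether those cultures met a solvent is not given in the sources used here. All cells met cycloheximide in the harvest buffer. Each state had 3 lysates, described as independent replicas, and both assays were run on every lysate, for 12 libraries in all. The 2 isolates of the line were not tied to samples in the labels, so that isolate and state cannot be told apart.

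Matricellular proteins are secreted into the extracellular matrix, where they act on cell adhesion and signalling more than as structural beams. Elastic fibres consist of an elastin core on a scaffold of fibrillin microfibrils, with fibulins and cross-linking enzymes that join the parts. Fibroblasts are a main source of both kinds of protein, and TGF-β signalling is a known inducer of many of their genes. In bulk samples such as these, fewer cells that express a gene and less RNA per cell cannot be told apart.

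The RNA-seq libraries held between 7895187 and 14133300 reads on mRNA regions. The Ribo-seq libraries were far less even, with 54323, 684957 and 1718431 CDS footprints in Pro and 1672649, 54587 and 583669 in Sen. Pro 1 and Sen 2 were therefore shallow, and 3 footprints equalled 52.1 and 52.7 CPM (counts per 1000000 reads of the scaled library) there against at most 5.83 CPM elsewhere. All 10 fibroblast markers were detected in RNA-seq, with a summed level of 28512 to 32075 CPM in Pro and 27066 to 30301 CPM in Sen. Summed epithelial markers reached 1.71 CPM at most and endothelial markers 1.03 CPM at most, with SFTPC and CDH5 at 0 in every RNA-seq library. Summed blood markers came to 19.1 to 21.2 CPM in Pro and 32.0 to 35.2 CPM in Sen, nearly all from CD68 (20.2 and 32.8 CPM), while PTPRC of leukocytes averaged 0.0880 and 0.0793 CPM. Summed muscle markers came to 76.9 to 84.1 CPM in Pro and 58.7 to 71.8 CPM in Sen, from DES (50.6 and 48.9 CPM) and MYH11 (30.9 and 18.1 CPM), with MYOD1 at 0. The part of these markers in the results was not tested. CDKN1A mRNA, which encodes a cell cycle inhibitor, averaged 504 CPM in Pro and 1533 CPM in Sen, and MKI67, a marker of cycling cells, averaged 149.6 and 30.5 CPM.

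The core promoters of 6 members are shown, the 4 that held a TATAA motif and those of THBS1 and SPARC, the members with the largest gains. Of the 10 members, 9 had an entry in the RefSeq promoter table (GRCh38.p14). Each line gives the 45 bases before the annotated start on the strand of the gene, and capitals mark TATAA wherever it occurred between bases -40 and -16.
POSTN: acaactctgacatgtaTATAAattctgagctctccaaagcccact
TNC: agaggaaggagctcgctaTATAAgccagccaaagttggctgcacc
THBS2: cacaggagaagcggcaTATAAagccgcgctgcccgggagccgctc
FN1: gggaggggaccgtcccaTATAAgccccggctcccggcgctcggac
THBS1: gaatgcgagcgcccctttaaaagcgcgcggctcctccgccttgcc
SPARC: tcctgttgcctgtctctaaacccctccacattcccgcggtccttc
These windows lie at chr13:37598769-37598813, chr9:115118158-115118202, chr6:169253847-169253891 and chr2:215436069-215436113 on the minus strand, chr15:39581034-39581078 on the plus strand, and chr5:151686916-151686960 on the minus strand. TATAA was found in 4 of the 9 member promoters and in 3.91% of 35116 promoters of the table, searched on the gene's strand alone. The 4 were POSTN, TNC and THBS2, whose mRNA was lower in Sen, and FN1, whose mRNA was called higher. The remaining members (TGFBI, FBN1 and FBLN1) had no such letters in the window, which says nothing about the factors that bind there.

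In GENCODE release annotation lifted to GRCh37, POSTN spans positions 38136720 to 38172981 of chromosome 13 on the minus strand. POSTN, FN1, TGFBI and FBLN1 overlap no other annotated gene. TNC, THBS2, SPARC, FBN1, ELN and THBS1 each overlap a non-coding gene on the opposite strand, THBS1 also the coding gene FSIP1, and FBN1 and THBS1 each a non-coding gene on their own strand. The transcripts of such neighbours can share reads, and the strand rule of the deposited counts is not given in the sources used here. Reads of these members and of their overlapping partners may therefore be mixed. Members hardly share sequence that could exchange footprints, since of all 28-base windows of their coding sequences only 2 were common to THBS1 and THBS2 and 2 to FBN1 and its paralog FBN2.

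POSTN encodes periostin, a secreted protein that binds integrins and collagen and is made by fibroblasts in remodelling tissue. In RNA-seq, POSTN stood at 444, 468 and 492 CPM in the Pro libraries and at 8.51, 8.50 and 8.23 CPM in the Sen libraries. Its CDS footprints were at 434, 876 and 978 CPM in Pro, from 25, 590 and 1641 reads, and at 18.1, 70.3 and 46.7 CPM in Sen, from 27, 4 and 24 reads. Every Pro library was above every Sen library in both assays. The log2 fold change, Sen over Pro, was -5.80 ± 0.09 (SE) for mRNA and -4.91 ± 0.25 for RPF. Since POSTN was selected on this contrast, these are descriptions without a test. Under the alternative processing settings the RPF change ranged from -5.30 to -4.05 and the mRNA change from -5.90 to -5.66. In the main fit POSTN ranked 6 from the lowest of 12787 genes by mRNA change and 2 from the lowest of 7521 by RPF change. In the RPF order SLC7A14 lay just below it at -5.12 and RARRES2 just above it at -4.44. Summed over a state, 2256 footprints in Pro stood against 55 in Sen, a ratio of 35.1 after scaling, with an exact 95% interval of 26.9 to 46.8 for counting error alone.

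Across the 9 other members, mRNA passed the threshold (Benjamini-Hochberg adjusted p under 0.15, edgeR quasi-likelihood test over all genes) in 9, with 5 higher and 4 lower in Sen. Over all 12787 genes tested, 36.6% were called higher and 37% lower, so a call in either direction was common in this contrast. ELN passed the filter on low counts through its Pro libraries alone, and without it 8 of 8 were called, 5 higher and 3 lower, with a median log2 fold change of 0.32. The 3 libraries of a state did not overlap those of the other in 8 of the 9, against 67.8% of all genes. Footprints were tested for 8 of the 9, because ELN failed the filter on low counts, and all 8 were called, 5 higher and 3 lower. The background was 27.5% called higher and 26.9% called lower among 7521 genes. This background is not matched for counts, and calls were more frequent among genes with many footprints. With at least 10 counts in every library, 610 of 828 genes were called. Non-overlap was seen for 6 of these 8 members and for 32.5% of all genes. The median log2 fold change of the 9 was 0.26 for mRNA, against -0.0058 over all genes, and that of the 8 was 0.47 for RPF, against -0.0033.

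**Figure D1:**
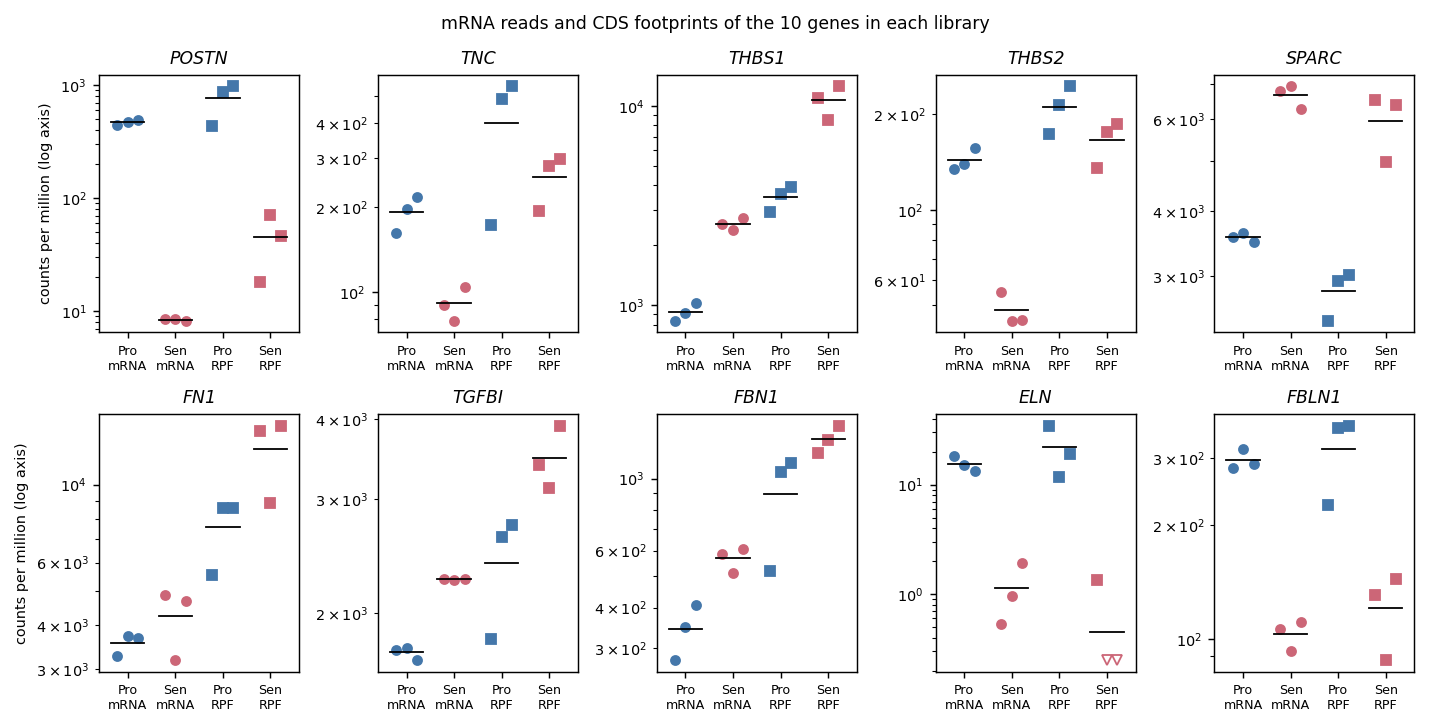
mRNA reads (circles) and CDS footprints (squares) of the 10 genes in CPM on a log axis, 1 point per library with replicates 1 to 3 from left to right, blue for Pro and red for Sen, the black line marking the mean of 3. POSTN and FBLN1 lie lower in every Sen library of both assays, ELN does so in mRNA, and THBS1, SPARC, TGFBI and FBN1 lie higher in both; open triangles mark the 2 Sen libraries without an ELN footprint.

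Among the matricellular members, the thrombospondins went in opposite directions. THBS1 encodes thrombospondin-1, a trimeric glycoprotein that inhibits vessel growth and can activate latent TGF-β. THBS1 mRNA stood at 838, 915 and 1027 CPM in Pro and at 2553, 2378 and 2756 CPM in Sen. Its footprints rose with it, from 2950, 3627 and 3938 CPM to 10999, 8544 and 12547 CPM. Neither assay showed overlap between the states. The log2 fold change was 1.47 ± 0.08 for mRNA (adjusted p = 1.53e-12) and 1.60 ± 0.20 for RPF (adjusted p = 2.43e-10), the largest gain among the members in both.

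THBS2 encodes thrombospondin-2, the closest relative of THBS1, which binds matrix proteases and affects collagen fibril assembly. THBS2 mRNA stood at 134, 139.7 and 157 CPM in Pro and at 55.0, 44.7 and 45 CPM in Sen. The footprints differed far less, with 174, 214 and 245 CPM in Pro, from 10, 144 and 411 reads, and 135, 176 and 187 CPM in Sen, from 202, 10 and 96 reads. The mRNA ranges were apart and the footprint ranges overlapped. The mRNA fell by 1.58 ± 0.09 on the log2 scale (adjusted p = 8.40e-13) and the footprints by 0.55 ± 0.17 (adjusted p = 0.00706). The footprint call was lost without Pro 3 (-0.38, adjusted p = 0.287), without Sen 1 (-0.28, adjusted p = 0.393), with replicate number as a block (-0.36, adjusted p = 0.302) and in DESeq2 (-0.47, adjusted p = 0.41).

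TNC encodes tenascin-C, a large hexameric glycoprotein of developing and wounded tissue that modulates adhesion to fibronectin. TNC mRNA was at 162, 197 and 218 CPM in Pro and at 89.7, 78.9 and 104 CPM in Sen. The TNC footprints were at 174, 487 and 541 CPM in Pro and at 194, 281 and 297 CPM in Sen. The low Pro value came from 10 reads in the shallow Pro 1 library and brought the states into overlap, while the deep Pro libraries lay above all Sen libraries. The log2 fold change was -1.08 ± 0.10 for mRNA (adjusted p = 4.18e-09) and -1.0 ± 0.18 for RPF (adjusted p = 3.87e-06). The replicate block reduced the footprint change to -0.65 (adjusted p = 0.0221), and DESeq2 did not call it (-0.72, adjusted p = 0.42).

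SPARC encodes osteonectin, a small collagen-binding glycoprotein. SPARC mRNA was at 3562, 3628 and 3493 CPM in Pro and at 6807, 6942 and 6268 CPM in Sen. SPARC footprints stood at 2464, 2938 and 3010 CPM in Pro and at 6542, 4975 and 6377 CPM in Sen. Both layers separated the states without overlap. SPARC changed by a log2 fold of 0.91 ± 0.07 for mRNA (adjusted p = 5.71e-10) and 1.08 ± 0.19 for RPF (adjusted p = 1.47e-06).

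FN1 and TGFBI encode adhesive matrix proteins with integrin-binding sites: fibronectin, whose fibrils seed the deposition of other matrix, and the TGF-β-induced protein, which belongs with periostin to the fasciclin family. FN1 mRNA was at 3254, 3707 and 3665 CPM in Pro and at 4864, 3177 and 4669 CPM in Sen. Sen 2 lay below all 3 Pro libraries, so that the mRNA ranges overlapped. FN1 footprints were at 5553, 8560 and 8582 CPM in Pro and at 14144, 8878 and 14699 CPM in Sen, with no overlap. The log2 fold change was 0.26 ± 0.11 for mRNA (adjusted p = 0.0471) and 0.73 ± 0.21 for RPF (adjusted p = 0.00297). The mRNA call rested on single libraries, since it was lost without Pro 1 (0.20, adjusted p = 0.175) and without Sen 1 (0.14, adjusted p = 0.316), while the change reached 0.42 (adjusted p = 8.33e-05) without Sen 2. It was lost as well when libraries were scaled by their totals (0.15, adjusted p = 0.233) and in DESeq2 (0.26, adjusted p = 0.23).

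TGFBI mRNA was among the least variable, at 1752, 1766 and 1689 CPM in Pro and 2258, 2251 and 2253 CPM in Sen. TGFBI footprints were at 1822, 2619 and 2738 CPM in Pro and at 3386, 3129 and 3906 CPM in Sen. The states did not overlap in either layer. TGFBI changed by a log2 fold of 0.38 ± 0.07 for mRNA (adjusted p = 6.68e-05) and 0.51 ± 0.18 for RPF (adjusted p = 0.0176), and the footprint call was lost without Sen 3 (0.41, adjusted p = 0.194).

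The elastic fibre members split as well. FBN1 encodes fibrillin-1, the main building block of microfibrils. FBN1 mRNA was at 276, 349 and 408 CPM in Pro and at 587, 513 and 608 CPM in Sen. FBN1 footprints were at 521, 1048 and 1116 CPM in Pro and at 1199, 1319 and 1458 CPM in Sen. The states did not overlap, although the deep Pro libraries came close to Sen 1 in footprints. The log2 fold change was 0.72 ± 0.10 for mRNA (adjusted p = 2.09e-06) and 0.43 ± 0.17 for RPF (adjusted p = 0.0397). The footprint call was lost without Pro 1 (0.23, adjusted p = 0.173), without Sen 3 (0.36, adjusted p = 0.265) and in DESeq2 (0.48, adjusted p = 0.177).

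ELN encodes tropoelastin, the soluble precursor of the elastin core, and was the least abundant member. ELN mRNA was at 18.3, 15.2 and 13.3 CPM in Pro, from 150, 178 and 143 reads, and at 0.532, 0.953 and 1.92 CPM in Sen, from 5, 13 and 21 reads. All Sen libraries lay far below all Pro libraries. Summed mRNA counts gave a level 13.4 times lower in Sen, with an exact 95% interval of 9.66 to 19.1 for counting error alone. Since ELN passed the filter on low counts through Pro alone, this is given without a test. ELN footprints were counted 2, 8 and 32 times in Pro and 2, 0 and 0 times in Sen, too few for the test across genes. Summed counts gave a level 18 times lower in Sen, with an exact 95% interval of 4.68 to 153 for counting error alone, and in Sen 2 the limit of 3 counts lay at 52.7 CPM, above every Pro level.

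FBLN1 encodes fibulin-1, a calcium-binding glycoprotein of elastic fibres and basement membranes. FBLN1 mRNA stood at 282, 318 and 289 CPM in Pro and at 106, 92.6 and 111 CPM in Sen. FBLN1 footprints were at 226, 359 and 365 CPM in Pro and at 131, 87.9 and 144 CPM in Sen. No Sen value reached a Pro value in either layer. The mRNA fell by 1.53 ± 0.08 on the log2 scale (adjusted p = 3.02e-13) and the footprints by 1.40 ± 0.17 (adjusted p = 1.76e-10).

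Together the 10 genes took between 1.11% and 1.19% of the mRNA reads of a Pro library and between 1.5% and 1.65% of a Sen library. Their share of CDS footprints was 1.52% (Wilson 95% interval 1.42% to 1.63%), 2.04% (2.01% to 2.07%) and 2.10% (2.08% to 2.12%) in Pro and 3.28% (3.25% to 3.31%), 2.86% (2.72% to 3.0%) and 3.50% (3.45% to 3.54%) in Sen. FN1 alone made up 0.589% to 0.842% of the footprints in Pro and 0.925% to 1.30% in Sen. The shallow Pro 1 library had the lowest footprint CPM of the 3 Pro libraries for 9 of the 10 genes, while it was the lowest for 51.7% of all genes tested. Sen 2 was the lowest Sen library for 5 of the 10, against 53.2% of all genes. In RNA-seq, which was deep in every library, Pro 1 was the lowest Pro library for 7 of the 10 (34.5% of all genes) and Sen 2 the lowest Sen library for 7 of the 10 (36.7%). The part of depth in these values was not tested.

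Levels between genes were compared per kilobase of the coding sequence of the canonical transcript, as CPM of CDS reads per kb. SPARC was the highest member in both states and assays, with mRNA at 1883 ± 122 (SD, n = 3) in Pro and 3498 ± 107 in Sen. In Pro mRNA it was followed by TGFBI (661 ± 15.4), FN1 (436 ± 31.5), THBS1 (180 ± 17.4), POSTN (159 ± 3.10) and FBLN1 (125 ± 8.62), then by FBN1 (35.9 ± 7.04), THBS2 (29.5 ± 1.62), TNC (26.5 ± 4.17) and ELN (4.66 ± 0.789). The ranges of THBS1 and POSTN touched, and those of FBN1, THBS2 and TNC overlapped, so their order is not resolved. In Sen mRNA POSTN ranked 9 at 2.93 ± 0.0905, above ELN alone (0.366 ± 0.233), and FN1 (522 ± 116) overlapped THBS1 (498 ± 48.0).

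Footprint levels per kilobase gave a different order at the top. In Pro, TGFBI (1168 ± 243), FN1 (1018 ± 235) and THBS1 (999 ± 143) overlapped behind SPARC (3085 ± 326). In Sen, THBS1 (3048 ± 574) lay above TGFBI (1695 ± 193) and FN1 (1692 ± 432) with no overlap and remained below SPARC (6562 ± 947). POSTN ranked 5 in Pro (304 ± 115), overlapping FBLN1 (150.2 ± 37.5), and 9 in Sen (18 ± 10.4).

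**Figure D2:**
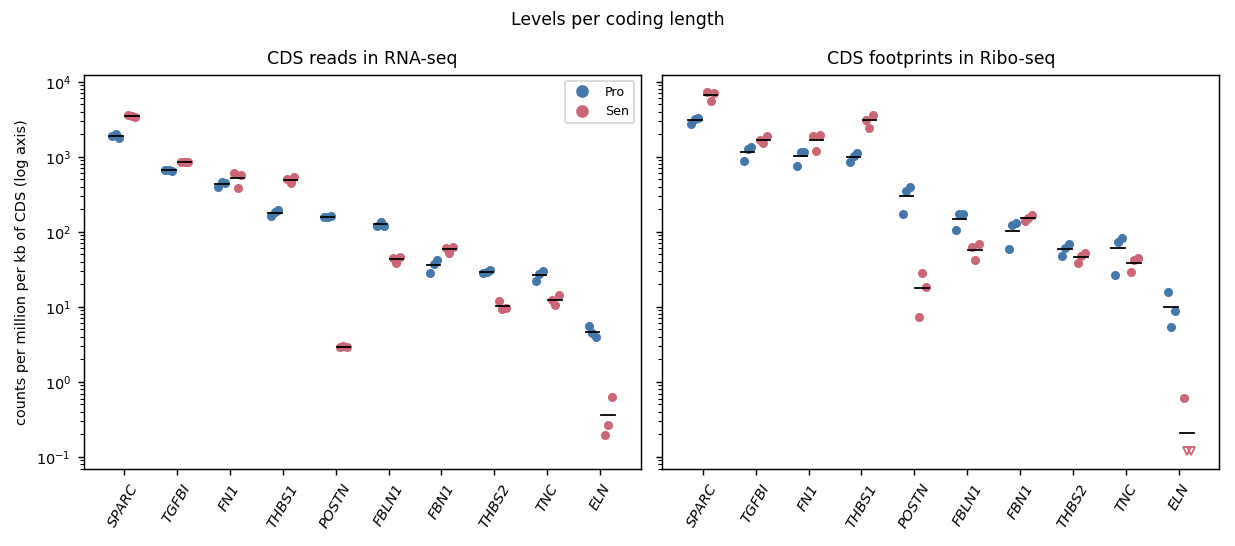
CDS reads in RNA-seq (left) and CDS footprints in Ribo-seq (right) in CPM per kb of coding sequence on a log axis, ordered by Pro mRNA, with 1 point per library, blue for Pro and red for Sen, and the mean as a black line. SPARC is highest throughout, POSTN drops from rank 5 to rank 9, and open triangles mark the Sen libraries with no ELN footprint.

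Translational efficiency (TE) was the log2 ratio of footprint CPM to mRNA CPM of a lysate, with 0.5 added to each count. A fit of both assays with the lysate as a block called 2 of the 8 members tested, THBS2 and FN1, both higher in Sen. Over all 7473 genes, 6.32% were called higher. The 3 lysates of each state did not overlap for these 2 of the 8 members, against 16.2% of all genes. Among all 751 TE calls 62.8% were higher with the factors used, and this share was 52.4% with RLE factors, 44.1% with library totals and 48.1% with factors set over all 12 libraries.

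THBS2 had TE values of 0.44, 0.62 and 0.65 in Pro and 1.30, 2.04 and 2.06 in Sen. Its fitted TE change was 1.06 ± 0.19 (adjusted p = 7.89e-05), which is the gap between its large mRNA loss and its small footprint loss. The call held without both shallow lysates (0.99, adjusted p = 0.00453) and was lost in limma voom (1.06, adjusted p = 0.187) and in DESeq2 (1.15, adjusted p = 0.537). FN1 had TE values of 0.77, 1.21 and 1.23 in Pro and 1.54, 1.48 and 1.65 in Sen. The change of 0.52 ± 0.19 (adjusted p = 0.115) lay near the threshold. It was lost when any 1 of Pro 1, Pro 2, Pro 3, Sen 1 or Sen 3 was left out, with values of 0.32, 0.58, 0.61, 0.52 and 0.44 and adjusted p between 0.281 and 0.494, yet it was called without both shallow lysates (0.40, adjusted p = 0.0496).

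THBS1 had the highest TE of the members in Pro and was not called changed, with TE values of 1.82, 1.99 and 1.94 in Pro and 2.11, 1.85 and 2.19 in Sen and a fitted change of 0.17 ± 0.19 (adjusted p = 0.656). TNC, SPARC, TGFBI and FBLN1 were not called either, with changes of 0.15, 0.22, 0.18 and 0.13 and adjusted p between 0.568 and 0.744. FBN1 was the only member tested with a negative value, -0.20 (adjusted p = 0.542), and it passed the threshold without Pro 1 (-0.36, adjusted p = 0.128) and without both shallow lysates (-0.35, adjusted p = 0.0994). POSTN, described without a test, had TE values of -0.0063, 0.90 and 0.99 in Pro and 1.10, 3.21 and 2.53 in Sen. The value of 3.21 rested on 4 footprints in the shallow Sen 2 library. The fitted POSTN change was 1.01 ± 0.32, and it ranged from 0.55 without Sen 3 to 1.83 without Sen 1.

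**Figure D3:**
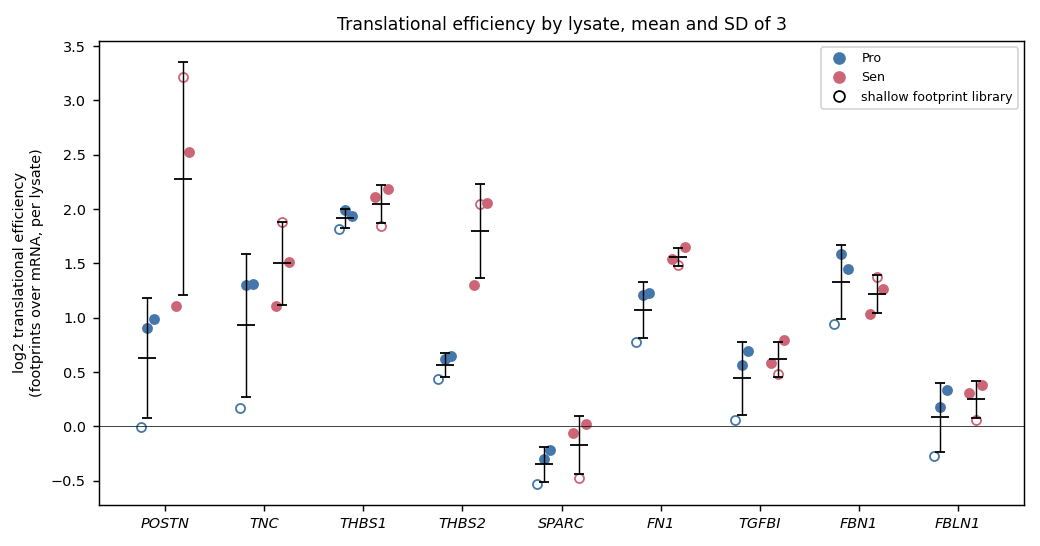
Translational efficiency (log2 footprint CPM over mRNA CPM) of 9 genes in each lysate, blue for Pro and red for Sen, with open circles for the shallow lysates Pro 1 and Sen 2 and black bars for the mean ± SD of 3. The Sen lysates of THBS2 and FN1 lie above all Pro lysates, THBS1 overlaps, and the POSTN values of Sen spread from 1.10 to 3.21.

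**Figure D4:**
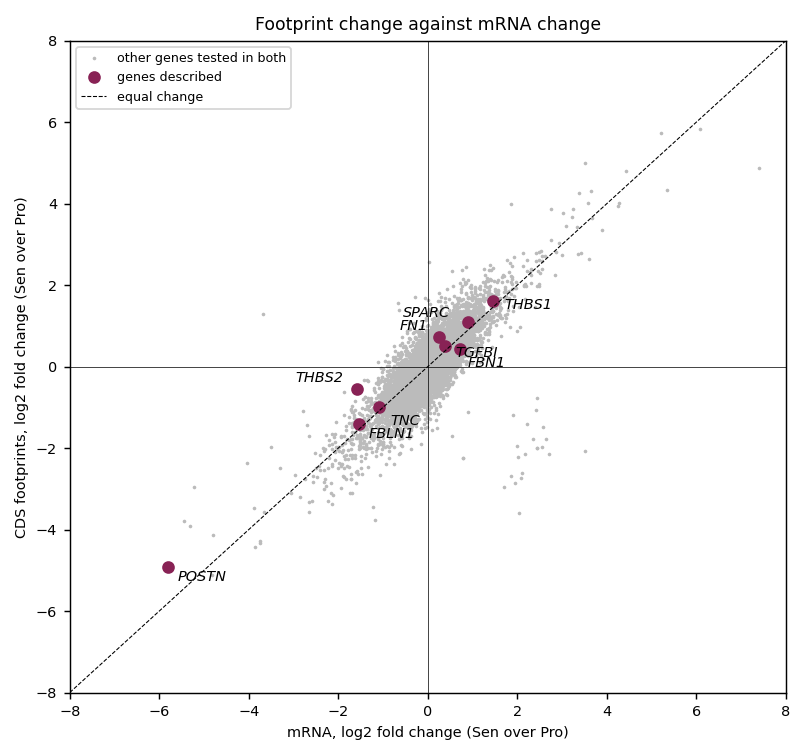
Log2 fold change of CDS footprints (vertical) against that of mRNA (horizontal), Sen over Pro, for genes tested in both (grey) and 9 of the 10 genes described (purple), with a dashed line of equal change. THBS2 lies above the line at -1.58 in mRNA and -0.55 in footprints, FN1 at 0.26 and 0.73, and POSTN sits at the lower left.

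Set against all 7473 genes tested, with CDS reads in both assays so that length cancels, THBS1 was at percentile 98.4 of TE in Pro and 98.7 in Sen. THBS2 stood at percentile 63.4 in Pro and 97.0 in Sen, and FN1 at 73.6 and 91.2. TNC was at percentiles 66.5 and 90.4, FBN1 at 85.4 and 82.7, TGFBI at 51.8 and 63.6, and SPARC at 46.9 and 58.3. These percentiles rank the unweighted mean of the lysates of a state, and that of TNC in Pro includes shallow Pro 1 with 10 footprints. Its lysates overlapped, at 0.33 to 1.44 in Pro and 1.26 to 2.04 in Sen, and its TE change was not called. FBLN1 was the lowest, at percentiles 26.0 and 33.8. POSTN was at percentile 55.1 in Pro and 98.4 in Sen, the latter on 55 footprints in all.

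The start codon surroundings are shown for the members whose TE was highest or changed most. Each line gives 15 bases of the canonical GENCODE transcript, with the start codon in capitals.
THBS1: agctccaccATGggg
THBS2: ggaggcaggATGgtc
FN1: cgtctcaacATGctt
POSTN: agactcaagATGatt
Of the 10 members, 8 had a purine 3 bases before the start codon, against 86.1% of 18930 canonical coding transcripts, and 4 had it together with a G right after the codon, against 43.5%. None of the 10 annotated 5′ UTRs, which ran from 15 to 316 bases, held an ATG upstream of the start codon. The share of all transcripts without such an ATG was not counted, so whether this is unusual is not known.

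Footprints on the 5′ UTR were fewer in Sen relative to the CDS for FN1. FN1 had 8, 49 and 105 of them in Pro beside 320, 5768 and 14395 CDS footprints, and 35, 0 and 4 in Sen beside 21113, 505 and 7561. As a share of all FN1 footprints this was 2.43%, 0.842% and 0.724% in Pro and 0.165%, 0% and 0.0529% in Sen. In Sen 2 the count of 0 of 507 allows a share of up to 0.592%. Summed over a state, FN1 had 0.791 5′ UTR footprints per 100 CDS footprints in Pro and 0.134 in Sen. The corresponding values were 1.11 and 0.65 for FBN1, 0.502 and 0.165 for SPARC, and 0.477 and 0.128 for THBS1. The Sen sums rested largely on Sen 1, without which they were 0.0496 for FN1, 0 for FBN1 (from 17, 0 and 0 footprints), 0.0561 for SPARC (from 20, 1 and 1) and 0.115 for THBS1. TGFBI had 4 such footprints in Pro and 5 in Sen, or 0.0619 and 0.0691. This direction was common. Among 703 genes with at least 100 CDS footprints in each state and at least 20 5′ UTR footprints in all, the ratio was lower in Sen for 78.7%, with a median of 5.06 per 100 in Pro and 2.99 in Sen.

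**Figure D5:**
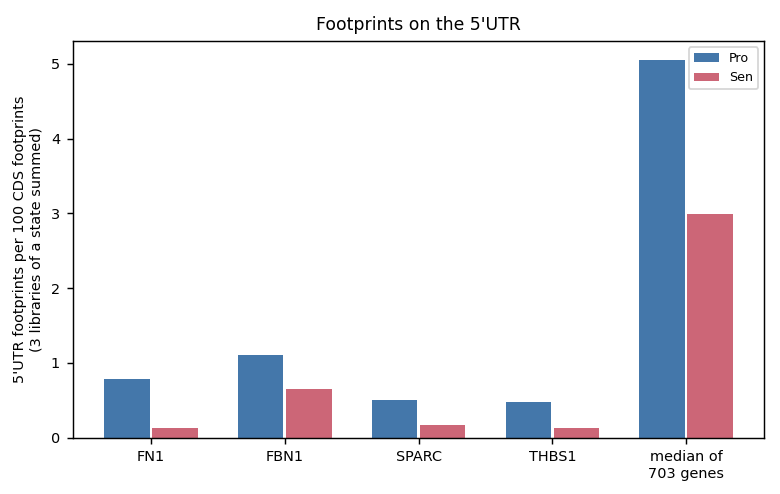
5′ UTR footprints per 100 CDS footprints, with the 3 libraries of a state summed, for FN1, FBN1, SPARC and THBS1 and as the median of 703 genes that had at least 20 such footprints, blue for Pro and red for Sen. All 4 genes and the median are lower in Sen, with FN1 at 0.791 and 0.134.

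On the 3′ UTR, SPARC had 0, 8 and 6 footprints in Pro and 24, 20 and 13 in Sen, and THBS1 had 2, 5 and 6 in Pro and 42, 13 and 18 in Sen. Per 100 CDS footprints this came to 0.195 in Pro and 0.428 in Sen for SPARC and to 0.141 and 0.313 for THBS1. The shallow Sen 2 library weighed on both, since 6.58% of its SPARC footprints and 2.60% of its THBS1 footprints lay there. Without Sen 1 the Sen values were 0.926 for SPARC and 0.447 for THBS1, and without Pro 3 the Pro values were 0.377 and 0.268. Leaving out Pro 2 gave 0.116 for SPARC. Leaving out Sen 2 gave 0.284 for SPARC in Sen. Without Pro 1 and Sen 2 the values were 0.199 and 0.284 for SPARC and 0.122 and 0.262 for THBS1. Among 460 genes with enough reads the ratio was lower in Sen for 6.52% alone, with a median of 1.85 per 100 in Pro and 6.54 in Sen, so a higher value in Sen was the rule for this region too.

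Further matricellular genes were few in these fibroblasts. Of 17 listed, 8 had enough mRNA to be tested, and 4 were called higher and 3 lower in Sen, against 36.6% and 37% of all genes, with a median log2 fold change of 0.23. CCN2, a connective tissue growth factor and known target of TGF-β, had the largest change among those called higher, with 831 ± 130 CPM (SD, n = 3) in Pro and 2331 ± 149 CPM in Sen (log2 fold change 1.49 ± 0.09, adjusted p = 7.57e-12). COMP, a cartilage thrombospondin, followed at 1.33 ± 0.27 (adjusted p = 0.000195) on a low level of 1.15 and 3.0 CPM. CCN3 changed by -1.31 ± 0.22 (adjusted p = 1.60e-05), also on a low level of 4.15 and 1.69 CPM, and SPOCK1, a proteoglycan, by -0.75 ± 0.10 (adjusted p = 5.92e-07). CCN1, which encodes another matricellular protein of the CCN family, was not called, at 619 ± 60.3 CPM in Pro and 609 ± 41.0 CPM in Sen (-0.024, adjusted p = 0.808). Footprints of 4 genes of this list could be tested, and CCN2 alone was called (1.59 ± 0.19, adjusted p = 5.82e-11).

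Of 25 other genes of elastic fibres and microfibrils, 22 were tested in mRNA, with 12 called higher and 7 lower, and 16 in footprints, with 10 higher and 2 lower. Over all genes these shares were 36.6% and 37% in mRNA and 27.5% and 26.9% in footprints. The median log2 fold change was 0.21 for mRNA and 0.51 for RPF. Without genes that passed the filter on low counts through 1 state alone, 11 of 18 were called higher and 4 lower in mRNA, and 9 of 13 higher and 1 lower in footprints, with medians of 0.32 and 0.55. MFAP5, a microfibril glycoprotein, passed this filter through Sen alone in mRNA and is given without a test. It was counted 2, 7 and 5 times in Pro and 114, 162 and 143 times in Sen. The pooled ratio was 27.0, with an exact 95% interval of 15.9 to 49.8 for counting error alone. ADAMTSL4, which binds fibrillin, had mRNA at 17.3 ± 2.34 CPM in Pro and 56.0 ± 3.01 CPM in Sen (1.70 ± 0.10, adjusted p = 1.57e-12). Its few footprints, which passed the filter through Sen alone, numbered 1, 2 and 16 in Pro and 38, 1 and 11 in Sen. LOX, the lysyl oxidase that cross-links elastin and collagen, had footprints at 1375 ± 127 CPM in Pro and 2672 ± 236 CPM in Sen (0.96 ± 0.17, adjusted p = 5.23e-06). At the other end, MFAP2 mRNA, which passed the filter through Pro alone, was counted 30, 41 and 35 times in Pro and 7, 14 and 7 times in Sen. This was a level 4.2 times lower, with an exact 95% interval of 2.75 to 6.62 for counting error alone. FBLN2, a fibulin, changed by -1.76 ± 0.11 in mRNA (adjusted p = 6.58e-12). MFAP4 footprints were called lower (-0.77 ± 0.20, adjusted p = 0.00112), and those of FBLN2, which passed the filter through Pro alone, numbered 1, 21 and 52 in Pro and 22, 1 and 4 in Sen. In TE, 3 of 16 were called, all higher (6.32% of all genes), with LTBP3, a latent TGF-β binding protein, at 0.73 (adjusted p = 0.0294) and LOXL1, a relative of LOX, at 0.57 (adjusted p = 0.0896). The TE values of Pro and Sen lysates overlapped for all 3 called genes. LTBP3 footprints numbered 8, 46 and 126 in Pro and 220, 8 and 74 in Sen.

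Receptors for these proteins were mostly higher in Sen at the mRNA level, with 8 of 9 tested called higher and 1 lower, against 36.6% and 37% of all genes, and a median log2 fold change of 0.51 (-0.0058 over all genes). ITGA8 and CD36 passed the filter on low counts through Sen alone, and without them 6 of 7 were called higher, with a median of 0.47. ITGA8, the integrin α8 subunit, was counted 4, 6 and 2 times in Pro and 136, 201 and 180 times in Sen, a pooled ratio of 38.8 with an exact 95% interval of 22 to 75.6. CD36, a scavenger receptor that binds thrombospondin-1, was counted 6, 7 and 5 times in Pro and 65, 86 and 79 times in Sen, a ratio of 11.5 with an interval of 7.13 to 19.8. SDC4, the heparan sulphate proteoglycan syndecan-4, was the receptor called lower (-0.63 ± 0.07, adjusted p = 7.22e-08). Its footprints were not called (-0.16, adjusted p = 0.435), and its TE was (0.52, adjusted p = 0.0665). Footprints were called for 3 of 7 receptors, all higher (27.5% of all genes, median of the 7, 0.21), led by ITGB5, the integrin β5 subunit (2.04 ± 0.18, adjusted p = 4.99e-16), and ITGA5, the α5 subunit of the fibronectin receptor (0.66 ± 0.16, adjusted p = 0.000689).

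All 11 genes of TGF-β signalling passed the threshold in mRNA, 6 higher and 5 lower, where 36.6% and 37% of all genes did, with a median log2 fold change of 0.21. TGFBR2, the type II receptor that binds the ligand, was at 187 ± 1.82 CPM in Pro and 928 ± 13.4 CPM in Sen (2.31 ± 0.07, adjusted p = 4.88e-17), and its footprints changed by 2.24 ± 0.18 (adjusted p = 1.83e-18). The ligand TGFB2 changed by 1.93 ± 0.08 in mRNA (adjusted p = 3.51e-15) and by 1.72 ± 0.19 in footprints (adjusted p = 1.92e-12). The ligand TGFB3 changed by -1.60 ± 0.22 in mRNA (adjusted p = 1.14e-06) and SMAD4, the common mediator of the pathway, by -0.66 ± 0.08 (adjusted p = 3.37e-07). TGFB3 mRNA was at a low level, 4.36 CPM in Pro and 1.43 CPM in Sen. Of 8 genes with tested footprints, 2 were called higher and 2 lower (27.5% and 26.9% of all genes, median of the 8, -0.23), the latter SMAD4 (-0.87 ± 0.25, adjusted p = 0.00322) and the type I receptor TGFBR1 (-0.72 ± 0.21, adjusted p = 0.00363). SMAD2 footprints passed the filter on low counts through Pro alone. Without SMAD2, 2 of 7 were called higher and 2 lower, with a median of -0.18. SMAD3, a receptor-activated transcription factor, was the 1 TE call of 8 (0.48, adjusted p = 0.137), with 6.32% of all genes called higher.

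The 5 genes whose profile lay nearest to that of POSTN were named by root mean square distance over the 12 libraries. The distance used log2 CPM minus the mean of the Pro libraries of the same assay. Only 1498 genes were compared, those of the TE test with a mean of at least 100 CDS footprints per library, so genes with fewer footprints could not be named. CEMIP, a hyaluronan-binding protein, was nearest at a distance of 1.08, with a log2 fold change of -3.89 in mRNA and -3.47 in footprints. COL15A1, a basement membrane collagen, followed at 1.74 (-2.75 and -2.77). CLDN11, a tight junction protein, was at 2.02 (-2.65 and -1.70), PCOLCE, which enhances procollagen processing, at 2.08 (-2.30 and -2.01), and SMC4, a condensin subunit, at 2.18 (-2.16 and -2.87). These genes were selected for their likeness, so their changes are descriptions with no test.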

How the data were processed

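Members and gene lists were chosen with earlier results of these data known. Groups and replicate numbers came from the sample labels, and the 2 libraries of a lysate share state and number. The deposited tables give, per gene symbol and library, unscaled expected counts by mRNA region (5′ UTR, CDS and 3′ UTR), as the authors assigned reads, with some reads split in fractions. Per the submitters' processing notes, cutadapt 1.18, Bowtie 1.0.1, SAMtools 1.8 and DESeq2 1.22.2 were used, without a stated role. The build, annotation, strand rule and handling of reads with several placements are not given in the sources used here, and the authors' own normalised values were not used. The tests were planned for plain counts, so values were rounded.

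mRNA was 5′ UTR, CDS and 3′ UTR reads of RNA-seq and RPF the CDS reads of Ribo-seq, among 16451 symbols with a CDS read. Tests were two-sided, by the quasi-likelihood method of edgeR 4.0.16 (R 4.3.3), after filterByExpr and TMM scaling. The false discovery rate of 15% over all genes is the threshold of the published methods, which used another tool, anota2seq. The calls here are therefore not those of the published test. The TE test was the interaction of library type with state, blocked by lysate. P-values measure the spread between these lysates. CPM used TMM library sizes. Intervals and floors of 3 counts cover counting error only, since PCR reads without molecular identifiers are not independent molecules. The scripts were tested on simulated data. Alternatives were RLE factors, library totals, other filters, limma 3.58.1 (voom), DESeq2 1.42.0, a threshold of 0.05 and leaving out libraries. Further ones were the replicate block (replicate number, for mRNA and RPF), TE without the lysate block, CDS reads alone and thinned RNA-seq. Leaving out each library for the UTR footprints, and leaving out genes that passed the filter through 1 state alone, were chosen after seeing the data.

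The lysate pairing comes from the protocol, which took both RNA fractions from 1 lysate, and deviations of paired libraries from their group means correlated at -0.13 to 0.21 across genes. All members were named. In each further list, the 2 highest and 2 lowest log2 fold changes among called genes were named per layer, and CCN1 was named after its values were seen. CYR61, CTGF and NOV were listed under their current symbols CCN1, CCN2 and CCN3, and WISP1 and WISP2 have second entries as CCN4 and CCN5 that may hold part of their reads. Gene positions and coding lengths came from GENCODE on GRCh37.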

Additional observations from a re-analysis of the deposited data

How the results depend on the processing

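The number of members called in mRNA (9) was 8 or 9 and that in RPF (8) was 7 to 9 under nearly all alternatives, the exception being DESeq2 with 5 in RPF. The 2 TE calls fell to 1 with at least 1 read, to 0 in DESeq2 and in limma voom and to 1 at a threshold of 0.05. They fell to 1 with no lysate block and ranged from 1 to 2 when 1 lysate was left out. Without both shallow lysates 3 members were called. The cause was not tested. The TE change of TNC (0.15) ranged from -0.013 to 0.39 when 1 lysate was left out and was -0.0018 without both shallow lysates, and that of TGFBI (0.18) ranged from -0.025 to 0.33, both turning without Pro 1. The same replicate numbers across states do not pair cultures by the labels, and their deviations correlated at -0.25 to 0.47 in RNA-seq and 0.021 to 0.16 in Ribo-seq. With this replicate block 9 members were called in mRNA and 7 in RPF, and THBS2 in RPF was the call lost.

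Library totals shifted the median of all genes by -0.11 in mRNA and -0.14 in RPF, and the share of RPF calls that were higher was then 39.1% against 50.5%. The 4088 RPF calls among 7521 genes became 1164 in DESeq2, 2336 with the replicate block and 2681 of 8066 without Sen 1. With at least 10 counts in every library, 610 of only 828 genes tested were called, a larger share. The 751 TE calls of 7473 genes became 28 in DESeq2, 47 in limma voom and 259 at 0.05. They became 236 of only 828 genes tested with at least 10 counts, a larger share, and 428 of 13538 with at least 1 read. With no lysate block there were 1339 calls, without both shallow lysates 1183 of 9151, and from 150 to 1146 without 1 lysate. The 9413 mRNA calls of 12787 genes became 4397 of 8537 after thinning to Ribo-seq depth. Among the members, POSTN and ELN had the fewest footprints in Sen, 55 and 2 in all, and the part of depth in this was not tested.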
